A study of Rattus norvegicus with 99 samples.

Results

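The genes described here encode 10 proteins that release, take up, store or carry calcium in heart muscle cells. They were taken by symbol from the deposited gene table, which holds 1 row for each of Atp2a2, Pln, Ryr2, Slc8a1, Casq2, Cacna1c, Cacnb2, Camk2d, Jph2 and Hrc among its 17337 genes, a rule that uses names and no threshold on a measured value. Of the 10, 10 passed the filter on low counts in each heart chamber. Their RNA was followed over 99 libraries, 3 from each of 33 rats, taken from the right ventricle (RV), the left ventricle (LV) and the septum between them (Spt), which form 21 groups of condition and chamber.

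By the labels, all animals were male F1 hybrids of Wistar Kyoto and Lewis rats, and whole tissue of each chamber was sequenced, so that RNA of every cell type entered a library. A titanium clip, not yet constricting when placed on the young animal, was put around the pulmonary artery (PAB, pulmonary artery banding, which loads the RV) or around the aorta (AOB, aortic banding, which loads the LV), and sham-operated animals of the same age served as controls. The hypertrophy stage (H), 7 weeks after surgery at an age of 11 weeks, has groups of 7 animals, sham-operated (Sham-H), with pulmonary banding (PAB-H) or with aortic banding (AOB-H). The heart failure stage (F) came 21 weeks after pulmonary banding, at 27 weeks of age, with 3 animals in PAB-F and 2 in its sham group Sham-RF. It came 24 weeks after aortic banding, at 30 weeks of age, with 4 animals in AOB-F and 3 in its sham group Sham-LF. The study's text gives other ages, calls the strain Wistar × Lewis and describes analyses by sex.

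With each heartbeat, calcium entering through the L-type channel (its pore is Cacna1c, its beta subunit Cacnb2) opens the ryanodine receptor Ryr2, which releases the calcium stored in the sarcoplasmic reticulum. Casq2 and Hrc bind calcium inside that store, and Jph2 holds the store's membrane close to the cell surface membrane, where channel and receptor face each other. For relaxation the pump SERCA2, encoded by Atp2a2 and held back by phospholamban (Pln), returns calcium to the store, while the exchanger Slc8a1 (NCX1) moves it out of the cell in trade for sodium. The kinase Camk2d phosphorylates several of these proteins. Less Atp2a2 relative to Slc8a1 is a textbook feature of failing heart muscle.

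Library totals ranged from 12.1 to 24.2 M (mega) counts, with a median of 17.4 M, and no 2 libraries held the same values. Over the 50 genes that best separated RV from LV in the other animals, Sham-H replicate 6, PAB-H replicate 2 and AOB-H replicate 1 had an RV-minus-LV difference of -0.981, -1.02 and -1.3 times the median of the other animals, so that their libraries labelled LV and RV go against their labels. Each comparison was repeated without these animals, and the values of the main members are given both ways where a compared group holds one of them. By their library numbers, which the labels give, the libraries form 3 consecutive runs, here library series 1 to 3. Within each chamber all libraries of the failure stage belong to 1 series (series 2 in LV and RV, series 3 in Spt), whereas the groups of 7 animals are spread over them.

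Calcium handling genes of very different abundance make up the set. Compared per gene length, as deposited FPKM (read count scaled to gene length and library size), Pln was the most abundant with a median of 2675 over the 99 libraries (lowest 1925, highest 3483), and it ranked 33 among all genes. Atp2a2, its target, followed with a median FPKM of 1664 (913.3 to 2508, rank 58). The calcium-binding proteins of the store came next, Casq2 with 575.6 (416.4 to 760.2, rank 198) and Hrc with 471 (187.8 to 863.2, rank 230). These 4 genes therefore lay far above the channel and exchanger genes. Jph2 had a median FPKM of 96.83 (17.26 to 221.9), Ryr2 of 63.91 (40.53 to 89.21), Slc8a1 of 32.07 (18.99 to 55.13) and Camk2d of 24.79 (8.641 to 42.91). The L-type channel genes were the lowest, Cacnb2 with 17.72 (13.03 to 25.13) and Cacna1c with 8.523 (4.717 to 13.64). Jph2 spanned the widest range of the 10 relative to its median, and Pln and Casq2 the narrowest.

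**Figure D1:**
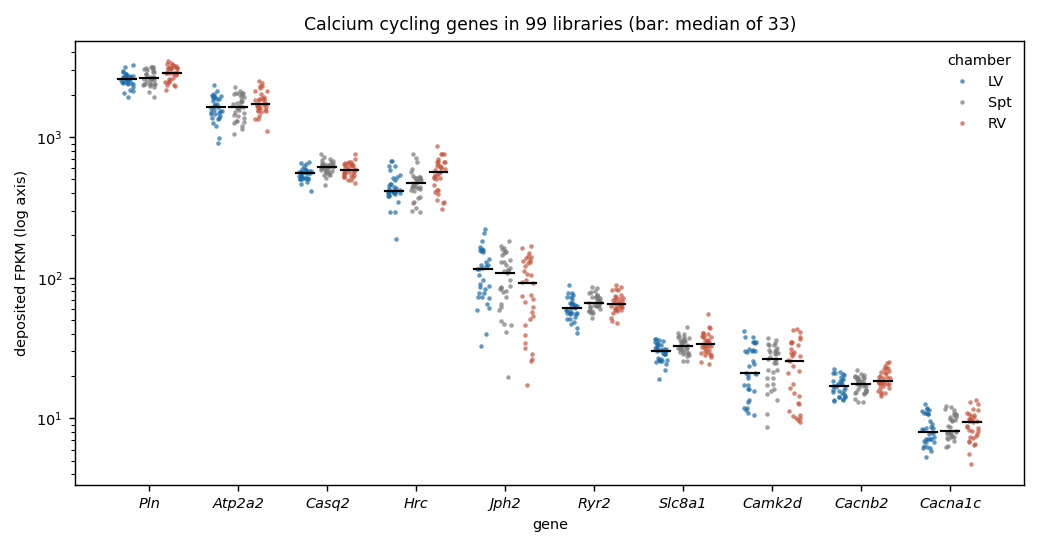
Deposited FPKM (log axis) of the 10 calcium cycling genes in each of the 99 libraries, by chamber, with a bar at the median of the 33 libraries of a chamber. Pln and Atp2a2 lie highest and Cacna1c lowest, and Jph2 and Camk2d scatter more widely than Pln and Casq2.

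Between groups, each level is a TMM-normalized CPM, a read count relative to the size of its library; such levels compare 1 gene between libraries. The group mean of Atp2a2 was highest in PAB-H RV with 11213 ± 1645 CPM (SD) and lowest in AOB-F LV with 6663 ± 1653 CPM, a ratio of 1.68. AOB-F LV was also the lowest of the 21 groups for Pln (4972 ± 408.8 CPM, against 7556 ± 334.2 in Sham-LF RV, a ratio of 1.52), for Hrc (750.3 ± 232.2 CPM, against 1745 ± 326.9 in Sham-LF RV, a ratio of 2.33) and for Cacna1c (57.67 ± 5.95 CPM, against 85.13 ± 4.17 in PAB-F Spt, a ratio of 1.48). The pump, its inhibitor, a store protein and the channel pore thus shared their lowest group.

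The remaining members had their lowest group among the older shams. Sham-RF LV was lowest for Ryr2 (850.3 ± 22.62 CPM, against 1202 ± 143.3 in Sham-LF Spt), Slc8a1 (165.4 ± 0.6513 CPM, against 250.6 ± 81.33 in AOB-F RV), Casq2 (1250 ± 11.11 CPM, against 1591 ± 97.88 in PAB-F Spt) and Cacnb2 (55.8 ± 0.1537 CPM, against 81.34 ± 11.92 in PAB-H RV). The ratios of highest to lowest group mean were 1.41, 1.52, 1.27 and 1.46. Camk2d ran from 38.38 ± 2.763 CPM in Sham-RF Spt to 68.75 ± 14.79 in PAB-H Spt (ratio 1.79). Jph2 had the widest ratio, 2.91, from 98.84 ± 90.97 CPM in Sham-LF RV to 287.3 ± 74.01 in PAB-H LV, with SDs close to the lowest mean. The order of the groups is fine-grained, as groups that were neighbours in it overlapped in 20 of 20 pairs for 8 of the genes. For Atp2a2 and Pln they overlapped in 19 of 20, the exceptions being AOB-F Spt below Sham-RF LV for Atp2a2, and Sham-RF Spt below Sham-LF RV for Pln.

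The sequence before the start of 3 members is shown because Atp2a2, Pln and Hrc had the lowest p-values of the set in the failing LV. Each line holds the 250 bases before the gene start on the coding strand, from RefSeq (rat assembly GRCr8), on the + strand. Capitals mark 3 short words on either strand, the Sp1-type box GGGCGG, the box CCAAT of many promoters, and the word GATAA.
Atp2a2, chr12:39733269-39733518: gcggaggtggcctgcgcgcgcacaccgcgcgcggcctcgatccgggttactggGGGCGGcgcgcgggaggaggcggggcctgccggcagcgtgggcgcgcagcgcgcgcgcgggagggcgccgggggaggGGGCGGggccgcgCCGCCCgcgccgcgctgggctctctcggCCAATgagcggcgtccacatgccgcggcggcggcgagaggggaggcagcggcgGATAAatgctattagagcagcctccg
Pln, chr20:33172244-33172493: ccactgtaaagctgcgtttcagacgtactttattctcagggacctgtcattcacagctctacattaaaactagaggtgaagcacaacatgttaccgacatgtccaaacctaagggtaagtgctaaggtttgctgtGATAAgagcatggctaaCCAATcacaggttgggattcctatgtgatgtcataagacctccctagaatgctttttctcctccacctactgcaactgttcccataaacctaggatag
Hrc, chr1:104949500-104949749: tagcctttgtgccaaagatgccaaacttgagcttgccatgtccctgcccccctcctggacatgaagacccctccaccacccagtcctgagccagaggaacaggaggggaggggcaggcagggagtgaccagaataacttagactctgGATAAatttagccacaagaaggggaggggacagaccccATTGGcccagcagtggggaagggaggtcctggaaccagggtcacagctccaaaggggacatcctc
GATAA, the core that GATA factors recognize, lay 26 bases before the start of Atp2a2, 115 before that of Pln and 103 before that of Hrc. It was found in 3 of the 10 members and in 23.5% of 33469 RefSeq promoters of the same length. CCAAT was found in 5 members and in 34.0% of all promoters, and both words together in 8.36%. GGGCGG was found in 4 members and in 30.5% of promoters, and TATAAA in none of the members' windows, against 12.9% of all. The sequence of Atp2a2 has a GC content of 80%, that of Hrc of 58% and that of Pln of 44%, beside a median of 51.2% over all promoters. These matches describe letters only, and Cacnb2 has 2 listed starts, so that 11 windows were searched for the 10 members.

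The first question was whether the failing, aortic-banded heart carries less or more RNA of these genes than its age-matched shams. In the LV, Pln was lower in every AOB-F library than in every Sham-LF library, and Atp2a2 and Hrc were lower on average, but no member passed the test after adjustment over all genes. Pln measured 4645, 4889, 5567 and 4788 CPM in AOB-F replicates 1 to 4, against 6306, 6778 and 6094 in Sham-LF replicates 1 to 3. The groups do not overlap, and the log2 fold change was -0.35 ± 0.12 (SE, 95% interval -0.60 to -0.11, unadjusted p 0.00607, adjusted p 0.153).

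Atp2a2 measured 5224, 6925, 8889 and 5613 CPM in AOB-F LV, against 9683, 8417 and 9833 in Sham-LF LV. Replicates 1, 2 and 4 lie below all shams and replicate 3 lies among them, and AOB-F was 0.719 times the sham level (log2 -0.48 ± 0.18, interval -0.84 to -0.11, unadjusted p 0.0135, adjusted p 0.219). Without AOB-F replicate 3 the value was -0.64 with an adjusted p of 0.0332. Leaving out the 1 AOB-F library that lies among the shams widens the difference by its choice. No other single library left out gave a called member. Hrc measured 446.3, 940.5, 922.7 and 691.7 CPM against 975.6, 1285 and 913.2, which overlap (log2 -0.49 ± 0.24, unadjusted p 0.0478, adjusted p 0.386). The 3 genes with the lowest p-values thus comprise the pump, its inhibitor and a store protein that binds both calcium and triadin.

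The remaining members had smaller log2 fold changes, but members were not tested against each other. Ryr2 averaged 931.8 ± 103.6 CPM in the 4 AOB-F LV libraries, with replicate 1 lowest at 788.8, against 985.7 ± 71.24 in Sham-LF LV (log2 -0.07, interval -0.45 to 0.31). Casq2 measured 1152.2, 1186, 1323 and 1409 CPM against 1378, 1324 and 1262 (log2 -0.05, interval -0.27 to 0.17), the narrowest interval of the set. The exchanger Slc8a1 measured 193.4, 155.8, 171.3 and 233.2 CPM against 199.4, 184.8 and 195.2 (log2 -0.03, interval -0.35 to 0.30). The AOB-F libraries of Casq2 and Slc8a1 lie on both sides of the shams, and those of Ryr2 reach below but not above them. For Cacna1c the log2 fold change was -0.22 (interval -0.73 to 0.29) and for Cacnb2 0.03 (-0.27 to 0.32). Jph2 with -0.20 (-1.11 to 0.70) and Camk2d with -0.04 (-0.94 to 0.85) had the widest intervals of the set.

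Over the set, 9 members were lower and 1 higher in AOB-F LV, with a median log2 fold change of -0.138, beside 0.0138 over all genes tested. By edgeR 0 of 10 were called, against 0.837% of all genes, and 3 had an unadjusted p under 0.05, against 12.7% of all genes. In 1 member, Pln, the libraries did not overlap, as in 11.9% of all genes. DESeq2 also called 0 members and gave 3 an unadjusted p under 0.05. With the long-minus-short index of each library (described with the library axis at the end) as a covariate, Atp2a2 (-0.51, adjusted p 0.0397) and Pln (-0.34, adjusted p 0.0438) passed. This setting was added after the data had been seen. It also called more genes in all than the main test, by the counts in the last section, so 0.837% is not its share.

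In the Spt of the same animals the lowest p belonged to Hrc, with 872.3, 1080, 810.1 and 1056.4 CPM in AOB-F against 1594, 1706 and 1157.9 in Sham-LF. All AOB-F libraries lie below all shams (0.635 times, log2 -0.65 ± 0.18, interval -1.03 to -0.28, unadjusted p 0.00129, adjusted p 0.105). Pln measured 5151, 5480, 5223 and 5954 CPM against 5422, 7130 and 7115, with an overlap at Sham-LF replicate 1 (log2 -0.28 ± 0.12, unadjusted p 0.0265, adjusted p 0.322). Sham-LF replicate 1 was also low for Atp2a2, which measured 6017, 8117, 6939 and 7444 CPM against 6641, 8927 and 11604 (log2 -0.36 ± 0.19, interval -0.75 to 0.02). Of the 10 members 5 were higher and 5 lower (median -0.0642, all genes -0.0101). By edgeR 0 were called (0.232% of all genes), 2 had an unadjusted p under 0.05 (12.2%) and 1 had no overlap (9.94%), and DESeq2 gave the same counts of 0 called and 2 under 0.05.

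In the RV, which aortic banding does not load directly, Pln was again lower in every AOB-F library, with 4907, 6201, 7068 and 5612 CPM against 7886, 7218 and 7565 (log2 -0.32 ± 0.13, unadjusted p 0.016, adjusted p 0.347). Hrc measured 735.5, 1575, 1649 and 855.5 CPM against 2050, 1784 and 1400, with replicates 1 and 4 low and 2 and 3 within the sham range (log2 -0.51 ± 0.24, unadjusted p 0.0443, adjusted p 0.373). Atp2a2 measured 7676, 8634, 9299 and 8986 CPM against 9500, 8775 and 12232 (log2 -0.21, interval -0.61 to 0.19). The pump, its inhibitor and Hrc were on the lower side in all 3 chambers of AOB-F, which come from the same animals and are not independent. These 3 genes, which had the lowest p-values in the LV, were the lower members here, beside 7 higher ones (median 0.128, all genes 0.0298). By edgeR 0 members and 0% of genes were called, 2 members had an unadjusted p under 0.05 (12.9% of genes), and 1 did not overlap (9.92%). DESeq2 called 0 members with 2 under 0.05. The library index, which over the 99 libraries correlated positively with Camk2d and Jph2, correlated at -0.516 with Hrc and -0.365 with Pln. It was -0.0668 to 0.141 in AOB-F RV and -0.47 to -0.0121 in Sham-LF RV, which overlap. Sham-LF replicates 1 and 2 had -0.4699 and -0.3746 and the higher Hrc values. Replicate 3 had -0.01206, with its Pln between theirs. The log2 fold changes were 0.47 ± 0.54 for Camk2d and 0.60 ± 0.60 for Jph2. The part of the index in the values of these genes was not tested.

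**Figure D2:**
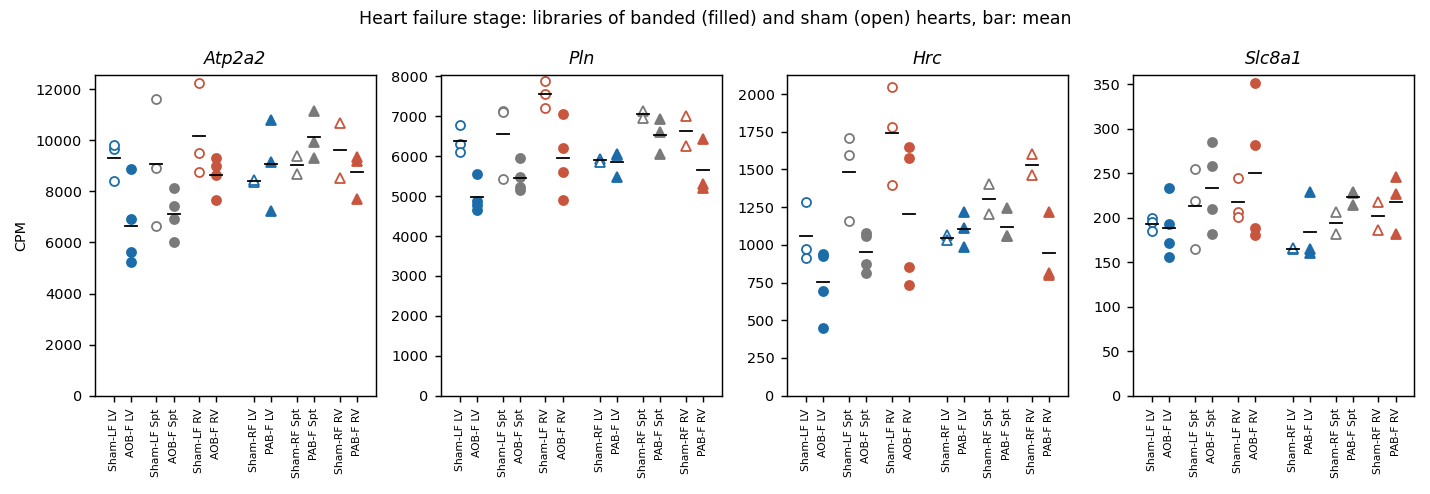
CPM of Atp2a2, Pln, Hrc and Slc8a1 in every library of the failure-stage groups, by chamber, with open symbols for shams, filled symbols for banded animals, circles for AOB-F and Sham-LF, triangles for PAB-F and Sham-RF and a bar at each group mean. Pln of AOB-F LV and RV and Hrc of AOB-F Spt lie below all of their shams, and Slc8a1 of AOB-F RV spreads from 180.3 to 351.3 CPM.

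Whether the response of the loaded LV differed from that of the RV was tested by an interaction. It gave 0 of 10 members called (0% of genes) and 0 with an unadjusted p under 0.05 (2.4% of genes), with 1 member higher and 9 lower, and DESeq2 gave the same counts. For Pln the difference of the responses was -0.02 ± 0.17 (interval -0.35 to 0.31) and for Atp2a2 -0.26 ± 0.27 (-0.79 to 0.27). The lower Pln of AOB-F was therefore not shown to belong to the loaded ventricle.

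The ratio of exchanger to pump within a library needs no scaling between libraries. As a percentage of Atp2a2 FPKM, Slc8a1 FPKM was 3.322, 2.019, 1.729 and 3.727 in AOB-F LV replicates 1 to 4, against 1.848, 1.97 and 1.781 in Sham-LF LV. In the RV it was 3.293, 1.874, 1.823 and 3.507 against 1.952, 2.054 and 1.798. Replicates 1 and 4 stand above all shams in both ventricles, and replicates 2 and 3 are close to them. In the Spt the values were 3.849, 2.319, 3.684 and 2.188 against 2.22, 2.204 and 1.969, with replicates 1 and 3 high. In the study's own sample list, AOB-F Spt libraries 1 and 2 stand in the opposite order, so the animals of these 2 are in doubt. In PAB-F RV the ratio was 1.738, 2.862 and 2.204 against 1.951 and 1.828 in Sham-RF RV, with replicates 2 and 3 above both shams. In PAB-F LV it was 1.984, 1.904 and 1.613 against 1.769 and 1.759, and in PAB-F Spt 1.842, 2.188 and 1.934 against 1.971 and 1.878. By comparison the mean ratio of the groups of the hypertrophy stage lay between 1.647 (Sham-H LV) and 2.06 (AOB-H Spt). Atp2a2 FPKM per Pln FPKM was less variable, with group means from 0.507 in Sham-RF Spt to 0.7045 in PAB-H Spt, and 0.5258 in AOB-F LV beside 0.5797 in Sham-LF LV.

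The failing, pulmonary-banded heart was compared with Sham-RF, a group of 2 animals. In the loaded RV, Hrc was lower in all PAB-F libraries, with 1215, 814.6 and 799.5 CPM against 1601 and 1464 (0.613 times, log2 -0.71 ± 0.29, interval -1.30 to -0.11, unadjusted p 0.0211, adjusted p 0.535). Pln measured 6444, 5297 and 5206 CPM against 6268 and 7007, with PAB-F replicate 1 inside the sham range (log2 -0.24, interval -0.55 to 0.07). Atp2a2 measured 9365, 7703 and 9209 CPM against 8538 and 10691, which overlap (log2 -0.14, interval -0.61 to 0.34). Camk2d measured 50.67, 59.68 and 80.26 CPM, each above the shams with 33.06 and 49.03 (log2 0.63 ± 0.65). Jph2 measured 133.1, 194.2 and 296.7 CPM against 60.38 and 158.5 (log2 0.93 ± 0.73), a spread of over 2 times within each group. The library index, to which Camk2d, Jph2 and, inversely, Hrc are related, did not overlap here. It was -0.0252 to 0.0436 in PAB-F RV and -0.0801 to -0.0505 in Sham-RF RV. With the index as a covariate the value of Hrc was -0.67 (adjusted p 0.266), and its part in the values of Camk2d and Jph2 was not tested. Ryr2 with 0.11 (interval -0.31 to 0.53), Casq2 with 0.13 (-0.16 to 0.42) and Slc8a1 with 0.11 (-0.36 to 0.58) had higher means in PAB-F, with intervals on both sides of 0.

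Over the set, 6 members were higher and 4 lower in PAB-F RV (median 0.104, all genes 0.00133). By edgeR 0 members were called (0% of genes) and 1, Hrc, had an unadjusted p under 0.05 (8.37% of genes), as with DESeq2, which called 0. Camk2d and Hrc did not overlap between the groups, but with 3 against 2 libraries this held for 35.8% of all genes. The difference of the RV from the LV response was not called for any member (0% of genes) and 0 members had an unadjusted p under 0.05 (4.89% of genes, 1 member by DESeq2). It was closest for Hrc (-0.77 ± 0.39, interval -1.55 to 0.01), whose values in PAB-F LV averaged 1104 ± 114.3 CPM beside 1047.4 ± 20.69 in Sham-RF LV.

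In the unloaded LV of PAB-F, 9 members were higher and 1 lower (median 0.108, all genes -0.00248). By edgeR 0 were called (0%), 0 had an unadjusted p under 0.05 (1.04% of genes), with 0 and 0 by DESeq2, and Ryr2 alone did not overlap (18.5% of genes), with 917.9, 1202 and 939.1 CPM against 866.3 and 834.3. In the Spt, Camk2d measured 71.67, 63.22 and 69.14 CPM against 40.34 and 36.43 (log2 0.83 ± 0.40, interval 0.01 to 1.65, unadjusted p 0.047, adjusted p 0.816), and 0 members were called (0%), with 1 member and 4.14% of genes at an unadjusted p under 0.05. There 8 members were higher and 2 lower (median 0.19, all genes 0.00385), and Cacna1c, Camk2d, Jph2, Ryr2 and Slc8a1 lay above and Pln below all shams without overlap, beside 42.6% of all genes. The library index was 0.0889 to 0.117 in PAB-F Spt and -0.16 to -0.087 in Sham-RF Spt, and with it as a covariate the value of Camk2d was 0.32. Fitted on these 5 libraries alone, Camk2d, Cacna1c, Jph2 and Ryr2 passed, with 792 genes in all.

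The AOB-F response in its loaded LV and the PAB-F response in its loaded RV were also set against each other. No member's responses differed past the threshold (0% of genes called), and 0 members had an unadjusted p under 0.05 (5.6% of genes), as with DESeq2. For Hrc the difference was 0.21 ± 0.36 (interval -0.50 to 0.93) and for Atp2a2 -0.34 ± 0.29 (-0.93 to 0.24), so a difference of either sign is within the interval.

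At the hypertrophy stage the question was whether the banded but compensated heart differs from Sham-H. The AOB-H and PAB-H comparisons share the Sham-H libraries. The groups overlap for Atp2a2 in the LV, where the lowest, median and highest libraries were 7762, 8858 and 13389 CPM in Sham-H and 7836, 9420 and 11704 in AOB-H (log2 0.00, interval -0.26 to 0.26). For Pln in the same libraries the log2 fold change was also 0.00 (-0.17 to 0.17). In the loaded RV of PAB-H, Atp2a2 ran from 9754 over 10563 to 13895 CPM, beside 9036, 10429 and 13236 in Sham-H RV (log2 0.10, interval -0.18 to 0.38), and Pln differed by 0.02 (-0.16 to 0.20). The largest of these 4 differences of the pump and its inhibitor in the loaded ventricles was 0.10, and their intervals reach 0.38 at most.

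Hrc in the Spt of AOB-H had the lowest p of the hypertrophy stage. It measured 709.1, 821.6 and 1246 CPM (lowest, median, highest) in AOB-H and 1030.5, 1126 and 1783 in Sham-H, with 5 AOB-H libraries (709.1, 821.6, 714.8, 759.7 and 885.3) below all shams and 2 (1246 and 1223) among them. The log2 fold change was -0.44 ± 0.13 (interval -0.71 to -0.18, unadjusted p 0.00191, adjusted p 0.204). It was -0.87 within library series 2 and -0.26 within series 3. Without Sham-H replicate 5, the highest library, it was -0.33. Without AOB-H replicate 6, the highest library of AOB-H, it was -0.54 with an adjusted p of 0.0459. Each of these choices moves the value by design, and no other animal left out gave a called member. Without the animals that go against their labels it was -0.43.

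Other genes moved beside it in the same libraries. The cardiomyocyte markers summed to 72840 to 95650 CPM (median 78280) in AOB-H Spt and 87560 to 127500 (94910) in Sham-H Spt, with 8 of 9 lower, 4 of these at an unadjusted p under 0.05 and 0 called. The macrophage markers summed to 289 to 646.4 CPM (median 371.4) against 241.9 to 416.3 (314.1), with 6 of 6 higher, 5 at an unadjusted p under 0.05 and 0 called. As a percentage of the cardiomyocyte sum, Hrc was 0.921 to 1.3 in AOB-H Spt and 1.09 to 1.4 in Sham-H Spt, which overlap. The library index described at the end was 0.0409 to 0.231 (median 0.117) against -0.823 to 0.237 (-0.00853), and with it as a covariate the value of Hrc was -0.31 (unadjusted p 0.0113).

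By edgeR 0 members were called in each of the 6 comparisons with Sham-H, beside 0% of all genes in each, and DESeq2 also called 0 members in each. An unadjusted p under 0.05 was found for 0 members in AOB-H LV (4.54% of genes), 1 in AOB-H Spt (15.9%) and 0 in AOB-H RV (0.937%), and for 0 in PAB-H LV (4.72%), Spt (4.44%) and RV (1.26%), with the same counts by DESeq2. The direction was mostly upward. In PAB-H 9 members were higher and 1, Hrc, was lower in each chamber, with medians of 0.167 in LV, 0.0981 in Spt and 0.144 in RV. In AOB-H 9 were higher in LV (median 0.111, all genes -0.001) and in RV (0.101, all genes 0.0101), and 5 in Spt (-0.0101, all genes 0.000479). The median library index was 0.166 in PAB-H LV and 0.222 in AOB-H LV, against -0.00321 in Sham-H LV. It was 0.154 in PAB-H Spt against -0.00853 in Sham-H Spt. In the RV it was 0.0623 in PAB-H and 0.0774 in AOB-H, against 0.0956 in Sham-H. The ranges overlap, and the part of the index in these directions was not tested. The lowest p in PAB-H belonged to Cacnb2 in LV, the channel's beta subunit (0.20 ± 0.10, interval -0.01 to 0.40, unadjusted p 0.0558). Leaving out PAB-H replicate 2, AOB-H replicate 1 and Sham-H replicate 6 left 0 members called in each. In the loaded ventricles the values were then -0.014 for Atp2a2 and -0.062 for Pln in AOB-H LV, and 0.10 and -0.019 in PAB-H RV. The negative ones among these had been slightly positive with all animals, so the counts of higher members above do not hold without these animals. The value of Cacnb2 in PAB-H LV was 0.18 (unadjusted p 0.113). Hrc in AOB-H LV (-0.32, unadjusted p 0.0434, adjusted p 0.64) and Ryr2 in PAB-H RV (0.26, unadjusted p 0.0204, adjusted p 0.865) came under an unadjusted p of 0.05. The share of all genes under that p in these fits is not given here.

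**Figure D3:**
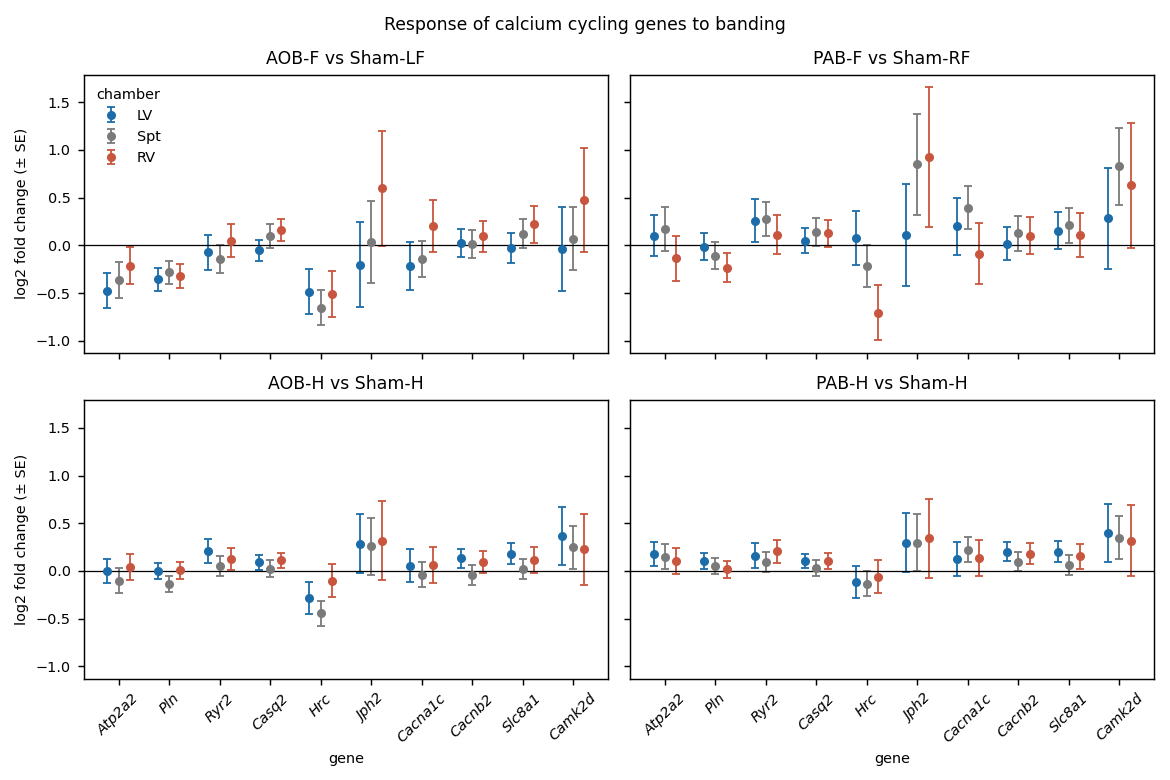
Log2 fold change of the 10 genes with its SE in AOB-H, PAB-H, AOB-F and PAB-F against their own sham groups, by chamber, with a line at 0. Pln, Hrc and Atp2a2 lie on the lower side in AOB-F, Hrc also in PAB-F RV, and the SE of Jph2 and Camk2d is several times that of Pln and Casq2.

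Whether the response to banding at failure differed from that at hypertrophy was tested by interactions. In the LV under AOB the difference was negative in 10 of 10 members (median -0.279). It was -0.36 ± 0.15 for Pln (interval -0.66 to -0.06, unadjusted p 0.0212, adjusted p 0.561) and -0.48 ± 0.22 for Atp2a2 (-0.93 to -0.03, unadjusted p 0.0393, adjusted p 0.625). Within library series 2, to which the failure-stage libraries belong, the value of Atp2a2 was -0.28. Without the animals that go against their labels the values were -0.29 for Pln (unadjusted p 0.0412) and -0.46 for Atp2a2 (unadjusted p 0.0598). By edgeR 0 members were called (0% of genes), and 2 had an unadjusted p under 0.05 (7.6% of genes, 2 members by DESeq2 with 0 called). In the RV under PAB, 3 members were higher and 7 lower, 0 were called (0%) and 0 had an unadjusted p under 0.05 (2.67% of genes, DESeq2 likewise 0 and 0), with Hrc closest (-0.64 ± 0.34, interval -1.33 to 0.05, and -0.59 without those animals).

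Age was read from the older shams, Sham-LF and Sham-RF averaged, against Sham-H. By edgeR 0 members were called in any chamber, where 0.0171% of all genes were called in LV, 0.103% in Spt and 0.0852% in RV. Likewise 0 had an unadjusted p under 0.05, beside 6.99%, 16.8% and 11% of genes, while DESeq2 called 0 and gave 2 members in Spt an unadjusted p under 0.05. The closest was Jph2, lower by 0.69 ± 0.34 on the log2 scale in the older Spt (interval -1.39 to 0.00). Without Sham-LF replicate 3, the highest of the older shams, it was -1.23 with an adjusted p of 0.0256, a choice that widens the difference. Without Sham-H replicate 6 and the other animals that go against their labels it was -0.72. Most members were slightly lower in the older shams, 8 of 10 in LV (median -0.117), 7 in Spt (-0.0688) and 6 in RV (-0.0674). In the older animals all LV and RV libraries are of series 2 and all Spt libraries of series 3, so that age and library series cannot be fully told apart.

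The chambers were compared within the 12 sham animals. In the RV, 2 members were called higher than in the LV by edgeR, Hrc and Pln, beside 10.2% of all genes called. Hrc measured 913.2, 1054.7 and 1605 CPM (lowest, median, highest) in LV and 1009, 1465 and 2050 in RV, and RV was higher in 11 of 12 animals, the exception being Sham-H replicate 6, whose libraries go against their labels. The log2 fold change was 0.38 ± 0.12 (1.30 times, interval 0.14 to 0.63, adjusted p 0.0364). Pln measured 5239, 5980 and 6778 CPM in LV and 5681, 6996 and 7886 in RV and was higher in RV in 12 of 12 animals (0.19 ± 0.06, 1.14 times, interval 0.07 to 0.32, adjusted p 0.0402). This count follows the labels also in Sham-H replicate 6 (5572.5 CPM in LV, 5681 in RV), and would not hold if its libraries were exchanged. The pump itself was not called (Atp2a2 0.13 ± 0.10, interval -0.07 to 0.33), and was higher in RV in 9 of 12 animals.

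Between the ventricles 3 more members had an unadjusted p under 0.05, 5 in all (26.8% of genes), and DESeq2 gave the same 2 calls and 5. The exchanger Slc8a1 measured 122.4, 178.6 and 231.7 CPM in LV and 182.2, 204.8 and 245.1 in RV, higher in 10 of 12 animals (0.22 ± 0.09, unadjusted p 0.0214, adjusted p 0.114). Cacnb2 measured 53.72, 60.92 and 86.98 CPM in LV and 58.18, 70.09 and 88.33 in RV (0.17 ± 0.08, unadjusted p 0.0487, adjusted p 0.183). It was higher in 12 of 12 by the labels, with Sham-H replicate 6 counted by its labels too. Jph2 was on the other side, with 84.51, 192.6 and 471.1 CPM in LV and 36.87, 129.3 and 351.5 in RV, lower in 11 of 12 animals with Sham-H replicate 6 again the exception (-0.60 ± 0.28, unadjusted p 0.033, adjusted p 0.146).

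Without the 3 animals whose libraries go against their labels 4 members passed, Hrc (0.49, adjusted p 0.00293), Pln (0.22, adjusted p 0.0117), Slc8a1 (0.26, adjusted p 0.0332) and Jph2 (-0.76, adjusted p 0.0461). The only sham among these animals, Sham-H replicate 6, was singled out by its reversed RV-minus-LV difference. Leaving it out therefore tends to widen differences between the ventricles. The share of all genes called in this fit is not given here, and the main share does not apply to it. In the 7 Sham-H animals alone 0 passed, with 0.18 for Hrc (unadjusted p 0.219) and 0.17 for Pln (unadjusted p 0.047). Leaving out 1 animal at a time raised the adjusted p of Hrc to between 0.0559 and 0.133 in 9 of 12 cases and that of Pln to between 0.0528 and 0.107 in 10 of 12. Hrc passed only without Sham-H replicate 2, 5 or 6, and Pln only without Sham-H replicate 5 or 6.

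**Figure D4:**
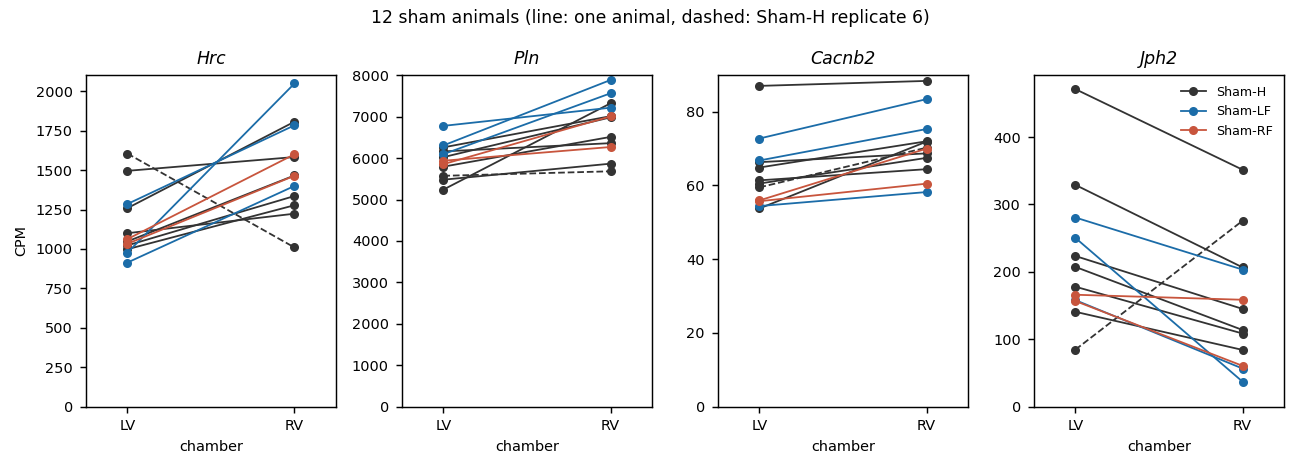
CPM of Hrc, Pln, Cacnb2 and Jph2 in LV and RV of the 12 sham animals, with a line joining the 2 libraries of an animal and a dashed line for Sham-H replicate 6. By the labels, Pln and Cacnb2 are higher in RV in 12 of 12 animals, Hrc is higher and Jph2 lower in RV in 11 of 12.

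The Spt differed from the LV in no called member (2.32% of genes called), and 3 had an unadjusted p under 0.05 (14% of genes, 3 members by DESeq2 with 0 called). They were Casq2 (0.16 ± 0.06, unadjusted p 0.00941, higher in 9 of 12 animals), Ryr2 (0.20 ± 0.09, unadjusted p 0.0263, higher in 11 of 12) and Slc8a1 (0.20 ± 0.09, unadjusted p 0.0332, higher in 9 of 12). Without the animals that go against their labels, the values were 0.16 for Casq2, 0.23 for Ryr2 and 0.23 for Slc8a1. Only Sham-H replicates 5, 6 and 7 have Spt and LV in 1 library series, and in these 3 animals Ryr2 and Slc8a1 turned to -0.16 and -0.06. Replicate 6 is the one whose libraries go against their labels, and in the 2 animals without it, added after seeing the data, the values were -0.23 ± 0.28 and -0.06 ± 0.22. Against the RV, 0 members were called in the Spt (8.06% of genes) and 0 had an unadjusted p under 0.05 (20.7%), with DESeq2 calling 0 as well. In the older shams chamber and library series cannot be told apart for the Spt.

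The proteins around these members were read from a list of 85 other genes of calcium handling, of which 79 are in the table. They comprise pump regulators, parts of the release unit, other channel subunits, extrusion pumps with the sodium pump, kinases with phosphatases, and genes of mitochondrial and store-operated entry. In AOB-F LV 72 were tested, 42 were higher and 30 lower (median 0.0352), and 1 was called (0.837% of all genes), Cacna1g, the pore of a T-type calcium channel. It measured 60.47, 14.09, 13.54 and 58.43 CPM in AOB-F LV against 9.917, 7.649 and 9.279 in Sham-LF LV (4.12 times, log2 2.04 ± 0.45, adjusted p 0.0338). Replicates 1 and 4, the libraries with the highest ratio of Slc8a1 to Atp2a2, stand far above replicates 2 and 3, which are themselves above the shams. The call was lost in 5 of 7 fits that left out 1 library (adjusted p 0.155 to 0.218), kept without AOB-F replicate 2 or 3, and lost when only the 7 libraries compared were fitted (adjusted p 0.344).

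Cacna1g was also uneven among the banded animals of other comparisons. In AOB-F RV it measured 55.63, 12.91, 9.24 and 62.89 CPM against 5.191, 7.56 and 8.195 (log2 2.34 ± 0.48, adjusted p 0.328), and in AOB-F Spt 48.95, 26.0, 70.64 and 20.88 against 15.79, 11.36 and 14.45 (1.56 ± 0.36, adjusted p 0.0554). Replicates 1 and 4 are again the high ones in the RV, and replicates 1 and 3 in the Spt. In PAB-F RV it measured 10.02, 29.14 and 29.27 CPM against 8.792 and 7.594 (1.48 ± 0.56, adjusted p 0.524). All banded libraries lie above all of their shams in these 3 comparisons too, none of which passed the test. Groups without overlap were found for 9.92% of all genes in AOB-F RV, 9.94% in AOB-F Spt and 35.8% in PAB-F RV. The nearest libraries in PAB-F RV measured 10.02 against 8.792 CPM.

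Of the direct partners of the members, triadin (Trdn), which ties Casq2 and Hrc to Ryr2, measured 359.8, 381.5, 275.9 and 413.3 CPM in AOB-F Spt against 784, 732.9 and 376.8 (log2 -0.84 ± 0.26, unadjusted p 0.00262, adjusted p 0.136). Its low sham library is replicate 3. In AOB-F RV its log2 fold change was -0.67 ± 0.32 (adjusted p 0.373) and in LV -0.32 ± 0.29 (adjusted p 0.793). Sarcolipin (Sln), an inhibitor of the pump that is abundant in atria, ran from 0.2001 to 303.3 CPM over the libraries, with single high libraries in most groups. Fkbp1b, a stabilizer of Ryr2, had group means of at most 0.2526 CPM and was not tested.

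In PAB-F RV 72 of the list were tested, 47 were higher and 25 lower (median 0.141, all genes 0.00133), 0 were called, and 7 had an unadjusted p under 0.05 upward and 2 downward. Of its kinases and phosphatases, 15 of 17 were higher (median 0.501), 2 of them with an unadjusted p under 0.05. The share of all genes under that p in PAB-F RV is the one given above for the members. In PAB-F Spt 15 of the same 17 were higher too (median 0.373), in PAB-F LV 12 (0.0504) and in AOB-F RV 12 (0.257). In AOB-F Spt 11 were higher (0.097), and in AOB-F LV 5 were higher and 12 lower (-0.0819). The library index did not overlap between PAB-F RV and Sham-RF RV, and its part in these values was not tested. Between the ventricles of the shams 76 were tested and 4 were called in the RV, beside 10.2% of all genes. Trdn was higher, with a mean of 576.25 CPM against 390.6 (0.56 ± 0.16, adjusted p 0.019), as were the channel pore Cacna1d (1.63 against 1.00 CPM, 0.72 ± 0.25, adjusted p 0.0457) and 1 subunit of the sodium pump, and a regulator of Ryr2 was lower. Trdn was thus called in the same direction as Hrc, its binding partner.

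In the Spt of the shams, 1 of the 76 was called against the LV (2.32% of all genes), the plasma membrane calcium pump Atp2b2 (0.41 ± 0.10, adjusted p 0.00904), and 5 against the RV, 3 higher and 2 lower (8.06% of all genes). The largest of these were Cacna1d (-0.88 ± 0.25, adjusted p 0.0173) and the phosphatase inhibitor Ppp1r1a (-0.45 ± 0.14, adjusted p 0.0329). In the Sham-H animals with both chambers in 1 library series, Atp2b2 was -0.03 and Ppp1r1a 0.01.

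Markers of cell types were read beside these results. The cardiomyocyte genes, of which 9 of 10 listed are in the table, were abundant in all libraries, and their summed level was 62750 to 79550 CPM in AOB-F LV and 79000 to 99040 in Sham-LF LV, with 7 of 9 lower and 0 called. In bulk tissue, fewer cells of a type and less RNA per cell cannot be told apart. As a percentage of that sum, Pln was 6.15 to 7.40 in AOB-F LV and 6.84 to 7.71 in Sham-LF LV, Atp2a2 8.33 to 11.3 and 8.50 to 12.4, and Hrc 0.711 to 1.18 and 1.14 to 1.30. On this scale Pln overlaps between the groups. Hrc in the Spt was 1.10 to 1.23 in AOB-F and 1.24 to 1.77 in Sham-LF, with the nearest libraries at 1.23 and 1.24. The share of all genes without overlap on this scale is not given here, so no conclusion is drawn from it. The cardiomyocyte sum was likewise 73540 to 97940 CPM in AOB-F RV against 96890 to 111900, and 79300 to 92320 in PAB-F RV against 93070 to 96620.

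Macrophage genes summed to 425.9 to 703.1 CPM in AOB-F LV and 366.7 to 448.2 in Sham-LF LV (6 of 6 higher, 0 called), and fibroblast genes to 2894 to 3902 and 2475 to 2703 (5 of 7 tested higher, 1 called). The 7 genes of the atrial list summed to 2238 to 17290 CPM in AOB-F LV against 631 to 863.2 and to 340.1 to 7218 in PAB-F RV against 70.56 to 108.9. In AOB-F LV 6 of 7 were higher (median log2 fold change 2.51, 1 called), and in PAB-F RV 7 of 7 (median 5.14, 0 called). Nearly all of the sum in AOB-F LV is Nppa, at 2178 to 17260 CPM, which stressed ventricular muscle expresses as well. Bmp10, a gene of atrial muscle, was at 0 in all Sham-LF LV libraries and in 3 of 4 AOB-F LV libraries, with 2 counts in the fourth. Sln, also of this list, measured 1.816, 4.819, 9.21 and 79.83 CPM in AOB-F LV against 3.788, 3.407 and 3.993 in Sham-LF LV. In PAB-F RV it measured 7.377, 3.825 and 303.3 CPM against 3.052 and 4.365 in Sham-RF RV. The part of these cell types in the values of the 10 genes was not tested.

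The members varied to different degrees along an axis that runs through the libraries. The first principal component of the 99 libraries held 36.5% of the variance, and over the libraries it had a Pearson correlation of 0.956 with the long-minus-short index, the median deviation of the longest 20% of genes minus that of the shortest 20%. Differences between the 21 groups held 13% of the variance of the index, and in some comparisons it did not overlap between the groups. The Pearson correlation of log2 CPM with this index was 0.869 for Camk2d (Spearman 0.874), 0.762 for Cacna1c (0.813), 0.697 for Ryr2 (0.74) and 0.554 for Jph2 (0.733). It was -0.516 for Hrc (-0.511) and -0.365 for Pln (-0.318), so that Hrc and Pln were lower where Camk2d was higher. The other members lay between, Slc8a1 at 0.47 (0.517), Atp2a2 at 0.372 (0.517), Cacnb2 at 0.369 (0.468) and Casq2 at 0.244 (0.346). These are descriptions over libraries that share animals, depth and library series.

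The SD of log2 CPM within groups was largest for Jph2 (0.71) and Camk2d (0.634), followed by Cacna1c (0.329) and Hrc (0.306). It was 0.223 for Ryr2, and smallest for Pln (0.149) and Casq2 (0.146). Camk2d also differed between library series, with medians in LV of 27.42 CPM in series 1, 54.89 in series 2 and 76.56 in series 3, and in RV of 23.70, 59.68 and 70.23. Hrc ran from 1446 CPM in series 1 to 975.6 and 986.4 in series 2 and 3 of the LV, and Jph2 from 186.9 to 250.3 and 333.8. The groups of the series differ too, since series 1 holds no animals of the failure stage.

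**Figure D5:**
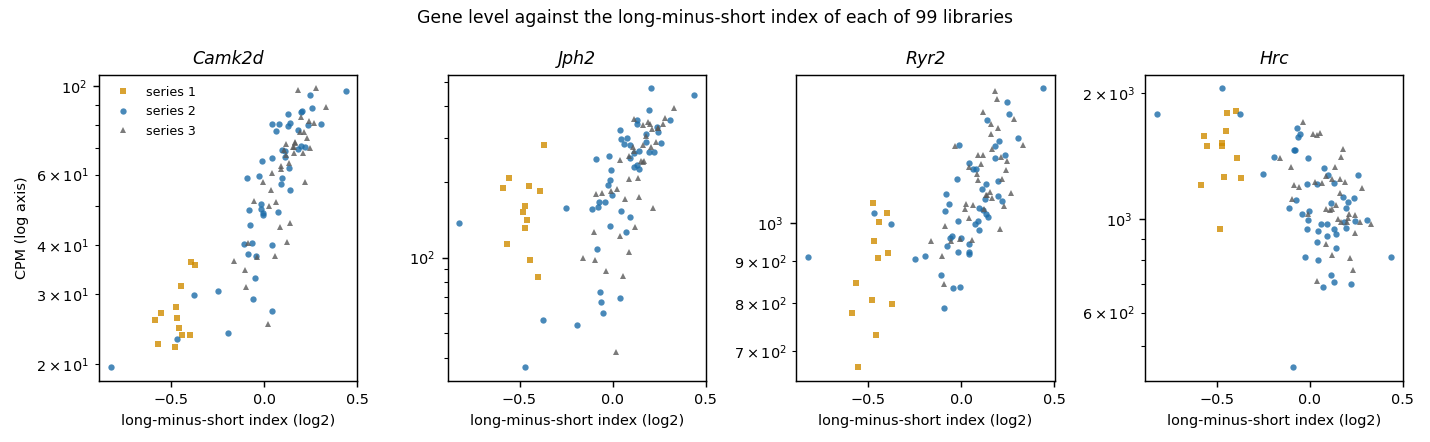
CPM (log axis) of Camk2d, Jph2, Ryr2 and Hrc in the 99 libraries against the long-minus-short index of the library (log2 units), coloured and marked by library series. Camk2d, Jph2 and Ryr2 increase and Hrc decreases along the index, and series 1 lies mostly at its low end.

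Among the members, log2 CPM over the 99 libraries correlated most between Cacna1c and Camk2d (Pearson 0.859), Cacna1c and Ryr2 (0.834), Ryr2 and Slc8a1 (0.819), Camk2d and Jph2 (0.811) and Atp2a2 and Cacna1c (0.79). Pln and Hrc formed a separate pair (0.77), and Hrc was negatively related to Jph2 (-0.574) and Camk2d (-0.539). Over all genes tested, the patterns nearest to Atp2a2 were those of Acsl1 (0.942), RGD1311756 (0.931) and Acss1 (0.92). Nearest to Ryr2 were Vps13d (0.891), Larp4b (0.85) and Ranbp2 (0.834), and nearest to Hrc were Emc9 (0.959), Etfb (0.945) and Tnni3 (0.934), the last a cardiomyocyte marker.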

How the data were processed

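Polyadenylated RNA from 99 rat heart samples was sequenced as single-end reads. The authors ran nf-core/RNA-seq, with Trim Galore for trimming, STAR for mapping to Rnor6.0 (UCSC annotation) and featureCounts for counting, which left out reads that overlap several genes. The strand setting is not given in the sources used here, so antisense overlaps cannot be told apart. The deposited counts are whole numbers. The deposited normalized counts, a signal on a linear scale, equal the counts divided by 1 DESeq2 size factor per library. The deposited FPKM values divide these by a constant per gene.

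Counts were tested with edgeR 4.0.16 (R 4.3.3; quasi-likelihood test, TMM, filterByExpr, Benjamini-Hochberg over all genes, called at an adjusted p under 0.05). Comparisons within a chamber used 1 fit of its 33 libraries and 7 conditions (11703 genes in LV, 11624 in Spt, 11734 in RV), and comparisons between chambers used 1 fit of 99 libraries and 21 groups (11924 genes). SE is the log2 fold change divided by the root of F, and 95% intervals use the t distribution of the fit. DESeq2 1.42.0 was an alternative. Replicates are separate animals by the labels. Libraries hold 12.1 to 24.2 M counts, and the failure-stage groups 2 to 4 animals, which both limit the precision.

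The members and gene lists were chosen with earlier results of these data known. Beyond the 10 members, the text names listed calcium-handling genes called under banding or in an interaction, the 2 largest called in each age or chamber comparison, Sln, Fkbp1b and Trdn, and the 3 nearest patterns of Atp2a2, Ryr2 and Hrc. Strit1, Ryr1, Ryr3, Asph, Mcub and Smdt1 have no row and were not analysed here. For the RV library of Sham-LF replicate 1, whose description names the other sham group, the title was followed, and for RV samples with a tissue field naming the left ventricle likewise.

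Chambers pair by animal. Deviations from the group mean correlated over 0.1 in 27 of 33 animals between RV and LV (median 0.483), in 19 between Spt and LV (0.153) and in 22 between Spt and RV (0.184). With the animal as replicate block the RV-minus-LV value was 0.38 for Hrc (adjusted p 0.0193) and 0.19 for Pln (adjusted p 0.0228). The tests were checked on simulated counts. Scripts searched promoters from a RefSeq table.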

Additional observations from a re-analysis of the deposited data

Results flagged for a closer look

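In 120 groups of 4 to 7 libraries, the highest or lowest library was compared with the rest by Dixon's test, and 5 stood apart, while chance flags about 1 group in 20. Sham-H replicate 5 accounts for 4 of them, in 3 chambers. In LV its Casq2 was 1597 CPM (other replicates 1232 to 1375) and its Cacnb2 86.98 CPM (53.72 to 66.29). In RV its Cacnb2 was 88.33 CPM (64.38 to 71.95), and in Spt its Hrc was 1783 CPM (1030.5 to 1335). The channel subunit Cacnb2 was thus high in both ventricles of 1 animal. The remaining library is the RV of PAB-H replicate 5, with the lowest Pln, 5605 CPM (6473 to 7067). All of these libraries belong to library series 2. Without Sham-H replicate 5 the log2 fold change of Hrc in AOB-H Spt was -0.33 instead of -0.44.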

How the results depend on the processing

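Of 480 alternative counts of called members, 459 kept the main count. In AOB-F LV the count went from 0 to 2 with the library index as a covariate (added after seeing the data) and was 0 to 1 when 1 library was left out, the 1 being Atp2a2 without AOB-F replicate 3. In PAB-F Spt it was 4 when only the libraries compared were fitted. When 1 animal was left out, it was 0 to 1 in AOB-H Spt (Hrc, without AOB-H replicate 6) and 0 to 1 for older shams in Spt (Jph2, without Sham-LF replicate 3). For RV against LV the main count of 2 was 1 without a filter on low counts (Hrc), 4 without the opposed animals, 5 with the index (Hrc, Pln, Slc8a1, Cacnb2 and Ryr2), 0 in Sham-H alone with or without replicate 6, and 0 to 3 when 1 animal was left out. For Spt against LV it was 1 with the index (Ryr2, 0.20, adjusted p 0.0226).

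In the Sham-H animals with both chambers in 1 series, 5 differences changed sign, for Spt against LV Ryr2 (-0.16), Slc8a1 (-0.0604) and Atp2b2 (-0.0296), and for Spt against RV Ppp1r1a (0.0118) and Stim2 (-0.0672). Without replicate 6, whose libraries go against their labels (added after seeing the data), Ryr2 (-0.228), Slc8a1 (-0.0611) and Atp2b2 (-0.106) changed sign. Of 631 alternative log2 fold changes, 508 kept direction and call, 104 lost and 11 gained the call, 8 changed sign, and the cause was not tested.

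Same-numbered libraries of banded and sham groups correlated over 0.1 in 34 of 57 pairs over 12 comparisons, and in 0 comparisons of 3 or more pairs did every pair. The correlations ran from -0.0313 to 0.119 for AOB-F with Sham-LF in LV and from 0.0241 to 0.85 for AOB-H with Sham-H in RV, where 6 of 7 pairs passed. The replicate block left 0 members called in every banding comparison, took Cacna1g in AOB-F LV from 2.04 to 1.38 (adjusted p 0.201), and took all genes called in AOB-F LV from 98 to 1 and in AOB-F Spt from 27 to 234. The chamber pairing changed no member's call. Over all genes, AOB-F LV had 98 calls in the main test, 366 with library series as a covariate, 245 by DESeq2, 515 with the index and 0 when only the compared libraries were fitted. For RV against LV 1219 calls became 2649 with the index, 1984 with the replicate block and 0 in Sham-H alone.

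With 2 to 4 animals in the failure-stage groups and wide spread of Jph2 and Camk2d, differences of these 2 genes within the intervals given were not detectable. Levels by deposited normalized counts gave the ratios of highest to lowest group mean within the spread of replicates for all 10 members.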
